A study of Homo sapiens with 8 samples.

Results

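LSD1-bound regions that were weak in every library and yet present in every library were examined in MDA-MB-231 cells, a human triple-negative breast cancer cell line. LSD1 occupancy was profiled by CUT&RUN in 2 libraries of parental cells and 2 libraries of RCOR2-KO1 cells, in which CRISPR/Cas9 was used against RCOR2. Both groups were cultured in the same medium with serum and received no other treatment, and KO1 was the only RCOR2 knockout profiled here. The lists hold no measure of RCOR2 or of its editing, so the knockout itself could not be checked from them. The paper shows an immunoblot for RCOR2 in parental and KO1 cells of this line. In CUT&RUN, an antibody guides a fusion of protein A/G and micrococcal nuclease to chromatin, and the fragments cut free around the bound protein are sequenced. The authors called peaks in each library separately, and each deposited row is the summit of a peak, the single base with the most signal, with the −log10 of the p or q value that the peak caller gave it. Positions refer to hg19. Where 2 values are given for a genotype, replicate 1 comes first.

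Summits of the 4 LSD1 lists on the autosomes and X were merged into regions, in which neighbouring summits lay at most 500 bp apart. Summits were ranked within their own list by the −log10 value, and the percentile of a region in a library is that of its highest summit there, where 100 is the strongest of the list. Weak regions had a summit in all 4 lists and a percentile below 50 in each of them. There were 6586 weak regions, out of 35861 regions found in all 4 lists and 68148 regions found in any list. The 16548 regions at or above 50 in all 4 lists are called strong regions and serve for comparison, and the remaining 12727 regions of all 4 lists lay on different sides of that rank in different libraries. The weak regions were chosen by their percentiles, and so by their −log10 values in all 4 libraries, and these measures are described without a test.

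LSD1, encoded by KDM1A, is a histone demethylase that removes methyl groups from lysine 4 of histone H3, a mark of active promoters and enhancers. It acts within CoREST complexes, in which an RCOR protein such as RCOR2 holds LSD1 together with the deacetylases HDAC1 and HDAC2. These complexes have no sequence preference of their own and are brought to DNA largely by transcription factors. In epithelial and breast cancer cells LSD1 is known from enhancers and promoters, also of genes that remain transcribed.

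The lists held between 47354 and 54467 summits. Parental replicate 2 had the longest list and parental replicate 1 the shortest, and the KO1 libraries had 49586 and 50119 summits. The sequencing depth is unknown, so no interval from read counts can be given. The paper says that CUT&RUN was repeated. Nothing in the labels says whether the replicates came from separate cultures, so the spread between them may be technical.

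The −log10 values of weak regions are given beside the lowest values of the lists as a description. These values and the need for a summit in all 4 lists chose the regions, and the calling threshold is unknown. How many were marginal calls can therefore not be told. The medians of weak regions were 8.41 and 10.7 in the parental libraries and 9.09 and 8.39 in the KO1 libraries. The lowest values of the whole lists lay between 1.31 and 1.40, so the middle of the weak set stood well above the floor in each library. The rank of 50 corresponded to −log10 values of 17.4, 18.6, 17.7 and 16.3 in the same order, which bounded the weak regions from above. Strong regions had medians of 41.3, 52.3, 45.2 and 40.5. Of the 6586 weak regions, 3966 (60.2%) had a value of at least 5 in all 4 libraries. A value below 2 in at least 1 library was found for 44 weak regions (0.668%), and 5 weak regions were below 5 in every library.

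**Figure D1:**
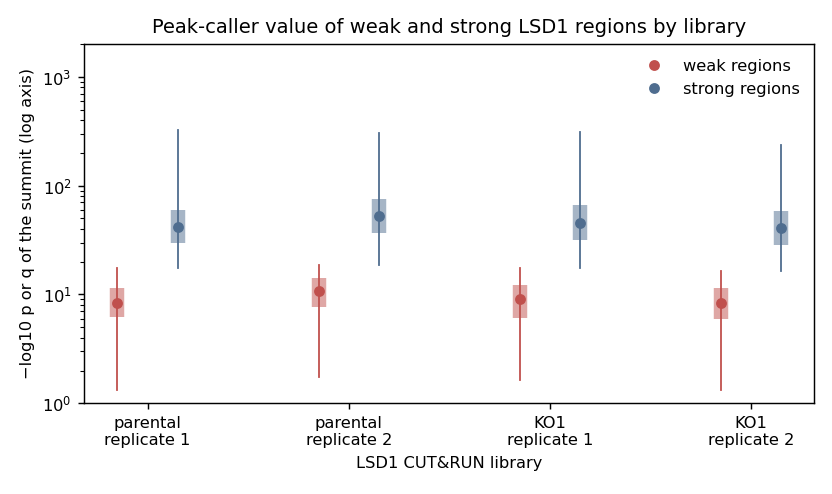
−log10 p or q value (log axis) of the 6586 weak and 16548 strong LSD1 regions in each library, with dots for medians, thick bars for quartiles and thin lines from the lowest to the highest value. Weak medians lie between 8.39 and 10.7 and strong medians between 40.5 and 52.3, and the sets do not overlap within a library because the rank separated them.

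The −log10 values of weak regions came in steps. In parental replicate 1, the 6586 weak regions shared 794 distinct values, and 238 regions had the same value of 7.94. KO1 replicate 2 had 588 distinct values, parental replicate 2 had 870 and KO1 replicate 1 had 727. A small change in the value of a weak region therefore moved its percentile by a step rather than smoothly.

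Within lists, the median percentile of weak regions was 23.9 and 32.1 in the parental libraries and 26.6 in both KO1 libraries. Parental replicate 2 was highest and parental replicate 1 lowest, so the genotypes overlapped. Of the summits below a percentile of 50, weak regions held 27.8% and 24.2% in the parental lists and 26.6% and 26.2% in the KO1 lists. The remainder belonged to regions that were absent from at least 1 list or reached a higher rank elsewhere. Of 33453 regions that stayed below 50 wherever they were found, 13441 were in a single list, 7599 in 2 lists, 5827 in 3 lists and 6586 in all 4. The median percentile of these low regions was 10.8 to 12.3 across libraries for regions of a single list, 17.7 to 23.03 for regions of 3 lists and 23.9 to 32.1 for regions of all 4 lists. The median rank of low regions was thus higher the more lists held them, in every library.

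The weakest of the set was a region on chromosome 3, chr3:180707482-180707645, at percentiles of 0.962 and 0.259 in the parental and 4.48 and 4.39 in the KO1 libraries. A region on chromosome 8, chr8:145747932-145748131, followed at 2.98 and 1.37 in parental and 1.64 and 7.01 in KO1 cells. On chromosome 16, chr16:89785660-89785910 lay at 3.49 and 1.06 in parental and 7.81 and 6.77 in KO1 cells. These regions were near the bottom of all 4 lists, with −log10 values of 2.28 to 4.65, and still had a summit in each. The other 2 of the 5 regions with the lowest mean percentile were on chromosome 10, chr10:8087080-8087549 (parental 8.58 ± 8.32, KO1 1.92 ± 0.180, mean ± SD, n = 2 libraries each), and on chromosome 15, chr15:99640779-99640960 (parental 6.21 ± 7.45, KO1 4.63 ± 2.60).

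At the upper bound, the highest percentile that a weak region reached in any library was 49.99, shared by regions such as chr3:39680965-39681006, which had 39.7 and 44.3 in parental and 49.99 and 45.2 in KO1 cells. Just outside, chr6:31036779-31036809 reached 50.02 in parental replicate 2, with 38.3 in parental replicate 1 and 35.1 and 29.4 in KO1 cells. Regions with their highest percentile from 40 to 50 numbered 3455, and those from 50 to 60 numbered 4405, so the bound did not fall in a gap between kinds of regions.

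The order of the weak regions was shared only loosely between libraries, although all 4 lists held them. Across the 6586 regions, Spearman's rho of the percentiles was 0.255 between the parental libraries and 0.265 between the KO1 libraries, and 0.129 to 0.147 for the 4 mixed pairs, each of 1 library per genotype. Over all 35861 regions of all 4 lists, the same values were 0.850, 0.840 and 0.770 to 0.785. Limiting the set to the lower ranks narrows the range and lowers rho by construction, and the regions of a library share its depth. The median absolute difference between libraries was 11.9 percentile points for the parental pair, 11.1 for the KO1 pair and 12.2 to 12.5 for the mixed pairs, against 5.79, 5.98 and 6.24 to 6.79 in strong regions. The rank of a single weak region thus typically moved by 11 to 13 points between any pair of libraries.

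Some weak regions had nearly the same rank everywhere. The smallest range was 1.18 points at chr2:17824520-17824629, with percentiles of 30.1 and 29.0 in parental and 28.9 and 29.0 in KO1 cells. A region on chromosome 19, chr19:7487412-7487441, lay at 12.5 and 12.4 in parental and 11.0 and 11.2 in KO1 cells. On chromosome 12, chr12:71870435-71870520 lay at 48.0 and 46.5 in parental and 48.3 and 47.1 in KO1 cells, which is close to the upper bound. The ranges at chr10:100092450-100093112 and chr4:82074965-82075403 were 1.61 and 2.19 points. Over the whole set the range had a median of 24.97 points, so these 5 are the extreme of the set and were named for that.

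Ranks within the weak set were compared between the genotypes as a description, since the choice of regions required a summit in both KO1 lists and a low rank in every library. Whether LSD1 was kept or lost in KO1 cells cannot be read from regions chosen in this way. The median KO1 minus parental difference of the 6586 regions was -1.30 percentile points, with quartiles of -10.1 and 7.85. KO1 was higher at 3030 weak regions (46.0%) and lower at 3556. It was higher at 47.3% of all regions of all 4 lists and at 48.2% of strong regions, which is close to the weak share. Over all regions of all 4 lists the median was -0.596, and in strong regions it was -0.219 with quartiles of -5.51 and 4.63. The sign of the weak median rested on parental replicate 2. Without this library, the median was 1.27, and replicate 1 alone gave 1.75 against -3.88 for replicate 2. No direction for the weak regions as a whole can therefore be read.

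At 1124 weak regions (17.1%), both KO1 percentiles exceeded both parental ones, against 19.6% of all regions of all 4 lists. The reverse, both parental percentiles above both KO1 ones, was found at 1386 weak regions (21.0%), against 22.5% of all regions of all 4 lists. These shares lay close to the background in both directions. At the other 4076 weak regions the genotypes overlapped.

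The weak regions with the largest differences lay near the upper bound in 1 genotype and near the bottom of the list in the other. Among regions where the genotypes did not overlap, the lowest KO1 values relative to parental cells were at chr6:52387622-52387777, with percentiles of 46.8 and 48.7 in parental and 11.4 and 1.79 in KO1 cells. At chr19:18521339-18521478 the percentiles were 47.2 and 45.7 in parental and 4.50 and 7.78 in KO1 cells. At chr2:197196010-197196080 they were 46.8 and 46.5 in parental and 10.8 and 2.48 in KO1 cells. The replicates of a genotype lay within 10 points of each other at these 3 regions, while the KO1 means differed from the parental means by -41.1, -40.3 and -40.03 points. The region chr16:85722668-85722689 differed by -39.4 points (parental 49.8 ± 0.165, KO1 10.4 ± 1.75) and chr22:37899950-37900166 by -39.3 points (parental 44.6 ± 2.93, KO1 5.34 ± 1.53, mean ± SD over the 2 libraries).

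In the other direction, chr2:68271385-68271438 had percentiles of 3.49 and 11.2 in parental and 46.9 and 49.9 in KO1 cells. The region chr8:81446799-81447295 had 2.31 and 8.78 in parental and 44.6 and 46.4 in KO1 cells. At chr2:106778559-106778611 the values were 0.272 and 3.74 in parental and 44.6 and 39.3 in KO1 cells, with −log10 values of 2.45 and 3.86 against 15.3 and 12.3. All 3 were near the floor of the parental lists and near the middle of the KO1 lists. The differences at chr11:5646086-5646212 and chr1:227531880-227531946 were 38.3 and 37.2 points. These 10 regions were picked as the extremes of 6586, the differences of both directions were of like size, and the rule limits any difference to under 50 points, so they are given as values and not as tested changes.

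**Figure D2:**
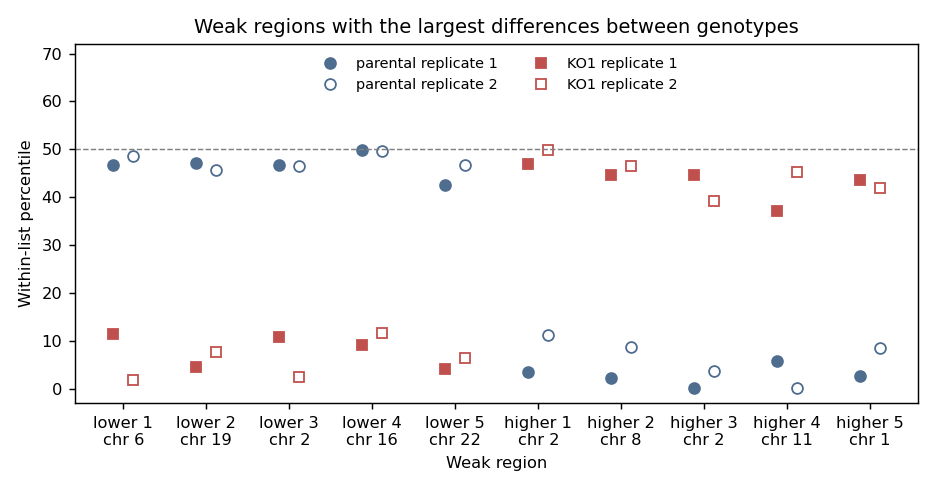
Within-list percentile in each library at the 5 weak regions with the most negative (lower) and the 5 with the most positive (higher) KO1 minus parental difference, numbered in the order of the text, with the dashed line at the bound of 50. Replicates of a genotype lie together and the genotypes are 37.2 to 41.1 points apart in size, as the choice of these regions required.

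By chromosome, the rank of weak regions in KO1 relative to parental cells was lowest on chromosome 19. The 223 weak regions there had median percentiles of 26.7 and 34.6 in the parental libraries and 24.7 and 24.96 in the KO1 libraries. Both KO1 libraries were thus below both parental libraries on chromosome 19, whereas over all weak regions parental replicate 1 was the lowest library. Chromosome 18 had the same order, with medians of 26.2 and 34.6 in the parental and 25.8 and 24.4 in the KO1 libraries. The median difference on chromosome 19 was -5.69 points, and 144 of its 223 weak regions (64.6%) were lower in KO1. KO1 was lower at 18887 of all 35861 regions of all 4 lists, and this share was not computed for all regions of chromosome 19. The median difference there was below 0 for all 4 mixed pairs of libraries, from -8.48 to -2.01. Relative to the weak regions as a whole, the difference on chromosome 19 was -4.39 points. It was -2.59 without KO1 replicate 2 and -2.73 without parental replicate 2, and was below 0 with each library left out in turn. Chromosome 19 was singled out after its values were seen, so leaving out libraries does not test its difference. Both KO1 percentiles exceeded both parental ones at 17 of these 223 regions (7.62%), against 12.6% of all 1338 regions of chromosome 19, and below them at 63 (28.3%), against 26.0%.

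Chromosome 16 followed with a median of -5.06 over 212 weak regions, then chromosome 17 with -4.08 over 255, chromosome 22 with -3.60 over 122, chromosome 12 with -3.09 over 339 and chromosome 18 with -2.97 over 139. On chromosome 18, 89 of the 139 weak regions (64.03%) were lower in KO1, a share like that on chromosome 19. This share was not computed for all regions of chromosome 18 either. At the other end was the X chromosome, with a median of 1.47 over 226 weak regions. Both KO1 percentiles exceeded both parental ones at 32 weak regions of chromosome 16 (15.1%, against 13.4% of all regions there), 33 of chromosome 17 (12.9%, against 16.2%), 16 of chromosome 22 (13.1%, against 13.7%) and 50 of X (22.1%, against 24.4%). Both parental percentiles exceeded both KO1 ones at 52 weak regions of chromosome 16 (24.5%, against 30.9%), 67 of chromosome 17 (26.3%, against 25.2%), 26 of chromosome 22 (21.3%, against 28.4%) and 50 of X (22.1%, against 18.6%). On chromosomes 16 and 22 the share with higher parental ranks was below that of all regions of the chromosome, so the counts do not follow the medians there. All 4 pairs of libraries were below 0 on chromosomes 12, 16, 18 and 19, on none were all 4 above 0, and the pairs disagreed in sign on the remaining chromosomes, so most of the order was within the spread between libraries. Strong regions of the same chromosomes had medians closer to 0, namely -0.952 on chromosome 19, -2.14 on chromosome 16, -0.518 on chromosome 17 and -0.802 on chromosome 22. Their medians were -0.0258 on chromosome 12, -1.77 on chromosome 18 and 0.234 on X. On chromosome 18, both parental percentiles exceeded both KO1 ones at 24.5% of weak and 29.8% of strong regions, and the reverse held at 15.1% and 15.9%. On chromosome 12 these shares were 25.1% and 19.8%, with the reverse at 15.3% and 18.8%. The difference between weak and strong regions was not tested. Over the 23 chromosomes, the weak medians of the replicate 1 pair and those of the replicate 2 pair, with no library in common, had a Spearman's rho of 0.685 (Pearson's r 0.713), and weak and strong medians had a rho of 0.531. Chromosomes share libraries and base composition among their regions, so these correlations are descriptions. 

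**Figure D3:**
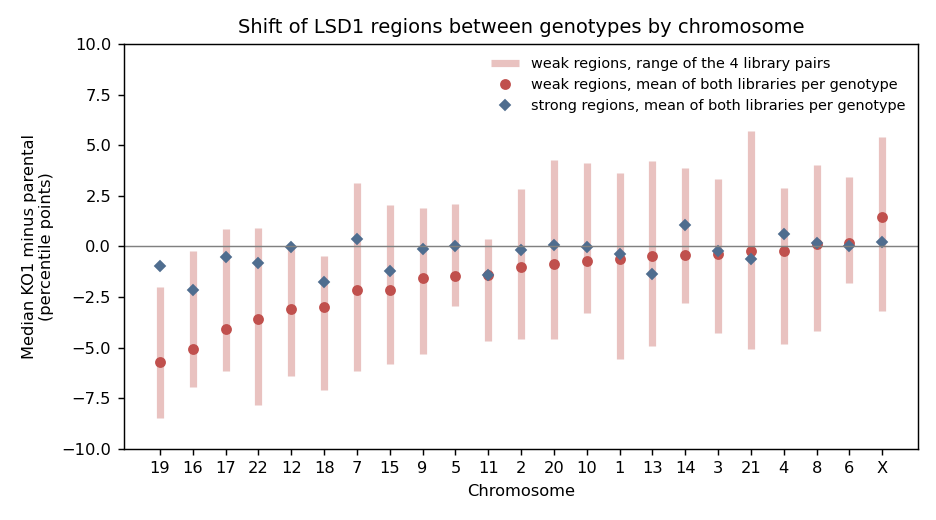
Median KO1 minus parental difference in within-list percentile by chromosome, in the order of the weak regions, for weak regions (circles, with bars from the lowest to the highest of the 4 library pairs) and strong regions (diamonds). Chromosome 19 is lowest for weak regions at -5.69 and X highest at 1.47, and the bars stay below 0 on chromosomes 12, 16, 18 and 19.

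Within chromosomes, 169 segments of 10 Mb held at least 20 weak regions. Their median differences ran from -9.50 to 7.36 with a middle value of -1.32. The lowest was on chromosome 11 from 110 to 120 Mb, with -9.50 over 21 weak regions and -4.35 in the strong regions of that segment. On chromosome 17, the segment from 40 to 50 Mb had -8.74 over 44 weak regions, with all 4 library pairs between -11.3 and -2.22, while its strong regions had a median of -0.0518. The highest median difference was on chromosome 14 from 90 to 100 Mb, with 7.36 over 22 weak regions and 0.709 in its strong regions. The segment of chromosome 7 from 10 to 20 Mb had 6.66 over 21 weak regions, with pairs between 3.48 and 9.36, and its strong regions had 0.324. Strong and weak medians thus did not always go together within a segment, and over the 169 segments their Spearman's rho was 0.368. Ranks of strong regions moved less between libraries, as given above, and the difference between the medians was not tested.

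The share of regions that were weak also differed along the genome. Weak regions made up 18.4% of the regions of all 4 lists, from 15.7% on chromosome 11 (281 of 1788, 95% Wilson interval 14.1% to 17.5%) to 22.4% on chromosome 4 (383 of 1710, 20.5% to 24.4%) and 23.5% on X (226 of 963, 20.9% to 26.2%). The intervals cover counting error only. The intervals of chromosome 11 and of chromosome 4 and X did not overlap, while most neighbours in the order did. These chromosomes are the extremes of the order and regions are not replicates, so this is a description and not a test. Over 287 segments of 10 Mb with at least 30 regions, the weak share ranged from 4.44% to 41.9% and was lower where a segment held more regions (Spearman's rho -0.324, a description). The highest share was on X from 20 to 30 Mb, where 18 of 43 regions were weak and 14.0% were strong. The lowest was at the end of chromosome 11 from 130 to 140 Mb, where 2 of 45 were weak and 64.4% were strong.

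**Figure D4:**
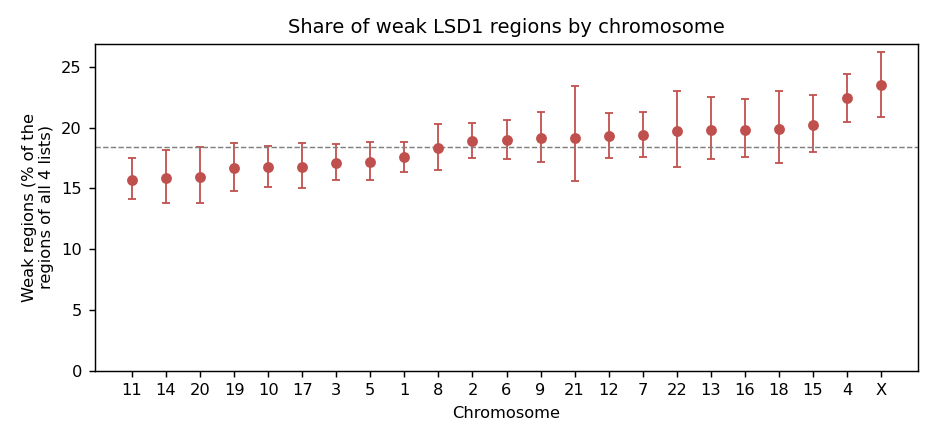
Share of the regions of all 4 lists that are weak, by chromosome in rising order, with 95% Wilson intervals for counting error and a dashed line at the genome-wide share of 18.4%. Chromosome 11 is lowest at 15.7% and X highest at 23.5%.

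The position of the summit within a region is also a description, since summits were merged by position and a region needed a summit of all 4 lists. The merging was the same for weak and strong regions. For each library, the distance of its summit from the median position of the other 3 libraries was taken, and 6568 of the 6586 weak regions had exactly 1 summit per library. The median distance in weak regions was 44 bp in both parental libraries and 42 and 43 bp in the KO1 libraries. In strong regions it was 35 and 34 bp in the parental and 35 and 36 bp in the KO1 libraries. The distance was larger in weak regions in 4 of 4 libraries, by 8.25 ± 1.5 bp (mean ± SD over the 4 libraries of both genotypes). Each library was measured against the other 3, so the distances of the libraries are not independent and the SD is no replicate spread. With regions joined at 250 bp the difference was 4 bp, so its size depended on the merging distance.

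Between the genotypes, the weak summits of KO1 cells lay 42 and 43 bp from the others, against 44 bp in both parental libraries, a mean difference of -1.5 bp. In strong regions the difference was 1 bp in the other direction. Each library was measured against libraries of both genotypes, so these distances are not measures within a genotype. Direct distances between the summits of pairs of libraries had medians of 55 bp for the parental pair, 52.5 bp for the KO1 pair and 54 bp for all 4 mixed pairs, so the mixed pairs lay between the pairs of the same genotype.

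The outermost of the 4 summits were 128 bp apart at the median in weak regions and 98 bp apart in strong regions. All 4 summits fell within 50 bp in 1160 weak regions (17.6%) and in 23.8% of strong regions, and within 200 bp in 62.7% and 76.2%. The main peak of the distribution lay between 50 and 100 bp. Spans from 400 to 550 bp made up 11.8% of weak and 7.28% of strong regions, against 11.1% and 8.61% from 250 to 400 bp. In bins of 50 bp, the weak share was 3.52% from 350 to 400 bp and 4.16% from 450 to 500 bp. The strong shares of these bins were 2.22% and 2.63%. The joining distance lies within the window from 400 to 550 bp, and its part in this low rise was not tested. Among the weak regions, the median span was 165 bp for the 1647 with the lowest mean percentiles and 99 bp for the 1647 with the highest, next to 98 bp in strong regions.

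**Figure D5:**
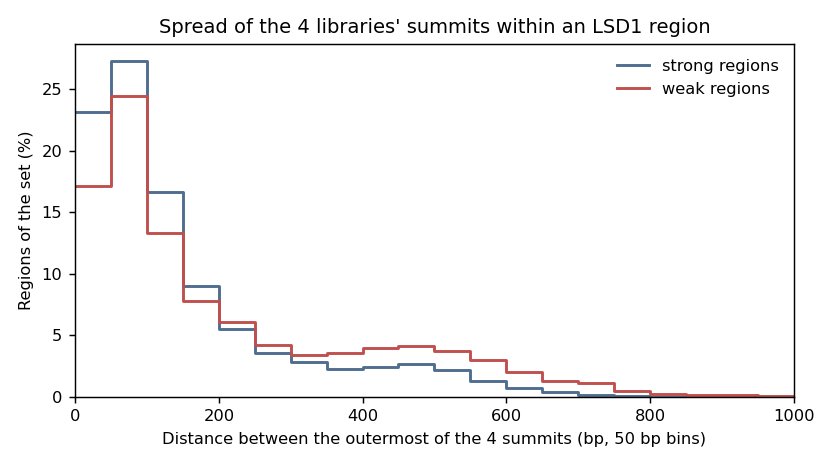
Distribution of the distance between the outermost of the 4 libraries' summits, in bins of 50 bp, as a percentage of the 6586 weak and of the 16548 strong regions. Weak regions have fewer spans under 100 bp. They have more from 250 to 400 bp (11.1% against 8.61%) and from 400 to 550 bp (11.8% against 7.28%). The joining distance lies within the latter range.

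The weak region with the most exact placement was chr13:40677217-40677219, where the 4 summits lay within 2 bp, at percentiles of 14.2 and 21.0 in parental and 28.3 and 37.6 in KO1 cells. At chr7:55573973-55573976, both parental summits were at 55573976 and both KO1 summits at 55573973, with percentiles of 25.6 and 32.3 in parental and 48.3 and 28.7 in KO1 cells. At chr11:89114388-89114392 the summits lay within 4 bp although the percentiles were far apart, at 2.31 and 45.2 in parental and 10.1 and 1.596 in KO1 cells. The regions chr12:112657051-112657055 and chr6:7184934-7184940 had spans of 4 and 6 bp and mean percentiles of 17.1 and 23.3. An exact position was thus found at low as well as at middling ranks of the set.

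Weak regions were spaced more widely than strong regions and much like the remaining regions of all 4 lists. The nearest other region of all 4 lists was at a median of 15628 bp from a weak region, 14438 bp from a remaining region and 10701 bp from a strong region. The nearest strong region was at a median of 37496 bp from a weak region, 34335 bp from a remaining region and 21604 bp from another strong region. A strong region lay within 10 kb of 1335 weak regions (20.3%), of 22.03% of the remaining regions and of 29.98% of strong regions. The wider spacing was thus not particular to the weak regions. Within 2 kb there was a strong region for 24 weak regions (0.364%). The nearest neighbour was a weak region for 20.3% of weak, 18.5% of remaining and 16.9% of strong regions. Weak regions made up 18.4% of all regions of all 4 lists. Low regions found in a single list lay at a median of 34640 bp from a strong region, which is close to the value for weak regions. Regions are not replicates, so these distances are descriptions of the 4 libraries.

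Among the named regions, the most exactly placed one on chromosome 13 had its nearest strong region 6426 bp away, and the one on chromosome 11 had it 225902 bp away. The region with the smallest range of rank, on chromosome 2, had another region of all 4 lists 2917 bp away and no strong region nearer than 333919 bp. Of the 10 regions with the largest differences, the nearest strong region was between 3762 and 186531 bp away. Gene names, promoters and base sequence of the weak regions were not analysed here, since the annotation and sequence tables at hand are of GRCh38 and the summits are of hg19.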

How the data were processed

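LSD1 CUT&RUN was analysed in 2 parental and 2 RCOR2-KO1 libraries. The 4 IgG libraries served the authors as input, so the deposited −log10 values and their ranks may depend on them. No IgG list was ranked here. Per the labels' processing notes, the authors used FastQC 0.11.2, Bowtie2 2.3.3.1, Picard and MACS2 2.1.0 on hg19. The calling threshold is not given in the sources used here. The deposited values are −log10 p or q values of peak summits, called per library, and depend on depth, so only ranks within a list were compared.

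Regions and ranks were computed in Python 3.11.15 (numpy 2.4.6, pandas 2.3.3), correlations in scipy 1.17.1 and figures in matplotlib 3.10.9. A single summit off chromosomes 1 to 22 and X was ranked but not joined. Members, named regions (5 per criterion: nearest to the bound from inside and outside, lowest mean, smallest range, largest difference in each direction, narrowest span) and comparisons were chosen with earlier results of these data known. Summit positions, which the merging used, are given without a test. Joining and calling were tested on simulated lists. Alternatives were other joining distances, a stricter bound, lists of equal length, ranks over shared regions, each library left out and the replicate block. Chromosomes and segments named beyond these criteria were singled out after their values were seen. Annotation and motif searches were not run, because no table of hg19 was used here.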

Additional observations from a re-analysis of the deposited data

How the results depend on the processing

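With regions joined at 250 bp, the median summit distance was 4 bp larger in weak than in strong regions (8.25 bp in the report), the nearest region was 18657 bp away, 18.2% had a strong region within 10 kb, and chromosome 19 was -5.52 points from all weak regions (-4.39 in the report). At 1000 bp these values were 10 bp, 14529 bp, 21.3% and -4.85. With weak defined as below 40 and strong as from 60, there were 3131 weak regions, 514 with both KO1 libraries higher and 669 with both lower, and the values were 11.3 bp, 15.7% and -5.04. With lists cut to the shortest, they were 5.75 bp, 16476 bp and -3.94. With ranks over the regions of all 4 lists, which moves the bound, there were 11871 weak regions, 2399 with both KO1 libraries higher and 2493 lower, 5 bp and 15.9%. Leaving out 1 library in turn, so that regions of 3 lists count, gave 8797 to 9284 weak regions, 2625 to 3382 with KO1 higher and 2791 to 3905 with KO1 lower, 8.33 to 10.7 bp, 14720 to 14933 bp, 21.4% to 21.9% and -4.05 to -2.59 for chromosome 19. The median KO1 minus parental difference ranged from -3.54 to 1.27 there and reversed to 1.27 without parental replicate 2. The settings that changed the bound or the number of lists changed the counts by construction, and the cause of the other changes was not tested. Shares over all regions were not computed under these settings, so the counts with KO1 higher or lower cannot be set against a background. The replicate block gave -1.30 for this median, equal to the unblocked value by construction, and was run for no other result. The differences between replicates of the genotypes had a correlation of 0.0136 over the weak regions. The rule narrows the ranks of these regions, so this value cannot show whether the libraries were paired. The depth of the libraries is unknown. The values for chromosome 19 were chosen after seeing the data. Other settings for positions relative to genes and for base sequence were not run, since no hg19 annotation or genome was used here.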

Other observations

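Low regions that did not reach all 4 lists were divided unevenly among the libraries. Of the 13441 regions below 50 in a single list, 5659 were in parental replicate 2 and 1873 in parental replicate 1, with 2926 and 2983 in the KO1 libraries. Of the 7599 found in 2 lists, 2339 were in both parental and 2072 in both KO1 lists, while each of the 4 mixed pairs had 409 to 1202. Of the 5827 found in 3 lists, 2259 lacked only parental replicate 1, the shortest list, and 740 lacked only parental replicate 2, the longest. The part of list length in these counts was not tested.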
